A study of Homo sapiens with 18 samples.

Results

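The TGF-beta and activin axis was followed through 9 genes, out of 38716 gene symbols in the tables. The genes were chosen by name, with earlier results of these data known. They are the ligand genes TGFB1, TGFB2, TGFB3, INHBA and INHBB, the secreted antagonist genes FST and GREM1, the inhibitory SMAD gene SMAD7 and the matrix protein gene TGFBI. Their levels were read in the human fibroblast line IMR90, which derives from fetal lung, by mRNA-seq and by Ribo-seq, which sequences the mRNA pieces (footprints) covered by ribosomes. The 18 libraries formed 6 groups of 3 replicates, from 3 conditions and both assays. The young condition was proliferating cells of low passage. The old condition was cells of high passage in replicative senescence. The ICM condition was low-passage cells given inflachromene (ICM), a compound directed at the chromatin proteins HMGB1 and HMGB2. All 3 conditions rest on this one cell line, no genetic change was introduced, and the labels name no vehicle for the young cells.

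TGF-beta proteins are secreted as latent complexes that are held in the extracellular matrix and released by integrins and proteases. Activins are dimers of inhibin beta subunits, activin A being built from the product of INHBA and activin B from that of INHBB. Both kinds of ligand act through receptor kinases that phosphorylate SMAD2 and SMAD3, whereas the related BMP ligands use SMAD1, SMAD5 and SMAD9. Follistatin (FST) binds and neutralises activins, gremlin 1 (GREM1) binds BMPs, and SMAD7 blocks the receptors from inside the cell. In lung fibroblasts the pathway is known for contractile and matrix gene expression, and TGFBI, which encodes an adhesive matrix protein, is named for its induction by TGF-beta.

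Coordinates are those of GRCh37, the build named in the submitters' processing notes, with the GENCODE annotation lifted to it. TGFB1 lies on chr19:41807492-41859827 (minus strand), TGFB2 on chr1:218518678-218617961 (plus) and TGFB3 on chr14:76424440-76449354 (minus), each with 7 exons. INHBA lies on chr7:41706766-41745432 (minus, 3 exons) and INHBB on chr2:121103712-121109379 (plus, 2 exons). FST lies on chr5:52776456-52782964 (plus, 6 exons), GREM1 on chr15:33010205-33037307 (plus, 2 exons), SMAD7 on chr18:46446223-46477335 (minus, 4 exons) and TGFBI on chr5:135364677-135399507 (plus, 17 exons). The 3′ UTR is much longer than the coding sequence in GREM1 (13861 against 555 bases) and INHBA (4536 against 1281 bases), and shorter in TGFBI (592 against 2052 bases). Genes on the opposite strand overlap TGFB1, TGFB2, TGFB3, INHBA and GREM1. Whether counting used strand was not given in the sources used here, so reads of these 5 genes and of the overlapping genes cannot be told apart.

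The promoters of the 9 genes were read for 4 short motifs, and the stretch around each match is shown for the genes that hold one. The windows ran from 250 bases before to 50 after each RefSeq start (GRCh38.p14), and all 9 genes matched, with 13 windows. The TATA box (TATAAA, either strand) was in 4 of these windows, 1 each in TGFB2, TGFB3, INHBA and SMAD7, and in 11.5% of 35116 promoters of all genes. It began 29 bases before the start in TGFB2, 30 in TGFB3, 35 in SMAD7 and 11 in INHBA, and it was in 1 of the several starts listed for TGFB3 and for SMAD7. The AP-1 site (TGANTCA) was found in FST alone, 160 bases before its start, and in 7.71% of all promoters. The SMAD palindrome (GTCTAGAC, 0.202% of all promoters) and the cyclic AMP response element (TGACGTCA, 1.85%) were in 0 of the 13 windows. The windows follow with the motif in capitals, at chr1:218345295-218345324 for TGFB2, chr14:75982008-75982037 for TGFB3, chr7:41703084-41703113 for INHBA, chr18:48949351-48949380 for SMAD7 and chr5:53480458-53480487 for FST.
TGFB2 (plus strand): tcagagagaactTATAAAtctcccctcccc
TGFB3 (minus strand): atgggagggaggTATAAAatttcagcagag
INHBA (minus strand): taagtagtacagTATAAAacttcacagtgc
SMAD7 (minus strand): ggagaggcgtgcTATAAAggctggaaggtc
FST (plus strand): gaaatgtcaccTGATTCAcactgaactttt
These are matches of letters in sequence, and no binding was measured.

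Levels are given as CPM, the reads of a gene scaled to a library total of 1000000 in the columns used (5′ UTR, CDS and 3′ UTR for mRNA, CDS for footprints). The mRNA-seq libraries held 7902427 to 14144455 such reads and the Ribo-seq libraries 46239 to 1718521. Of the Ribo-seq libraries 3 stood apart from their groups, young replicate 1, old replicate 2 and ICM replicate 3. Young replicate 1 and old replicate 2 held only 54421 and 54708 CDS reads, so 1 read there is 18.4 and 18.3 CPM. The CDS made up 34.4% and 15.0% of their reads, against 54.7% to 88.8% in the other Ribo-seq libraries. Non-coding RNA made up 52.5% and 45.2%. For 4 genes with mRNA only in ICM cells, summed footprints were 101 CPM in young replicate 1 against 6.81 and 6.79 CPM in the other young libraries, 88.3 CPM in old replicate 2 against 13.7 CPM in both other old libraries, and 656 to 963 CPM in ICM. For 11 genes with mRNA in young but not ICM cells, they were 573 CPM in ICM replicate 3, 152 CPM in ICM replicate 2 and 8.89 CPM in ICM replicate 1, against 1121 to 1213 CPM in young. Footprint results are therefore given with and without these libraries. All 8 fibroblast markers exceeded 1 CPM in every condition, and their summed mRNA level was 29279 to 33008 CPM in young, 25780 to 29031 CPM in old and 12591 to 12874 CPM in ICM. The 4 endothelial and 4 leukocyte markers summed to at most 4.73 and 0.99 CPM of mRNA, and of 6 epithelial markers only KRT8 exceeded 1 CPM. MKI67, a proliferation gene, had a log2 change in mRNA of -2.31 (old vs young) and -7.54 (ICM vs young).

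Old cells were set against young cells for the changes that come with replicative senescence. TGFB2 and INHBA mRNA rose, by log2 changes of 1.92 and 1.87, whereas TGFB3 and GREM1 fell, by 1.61 and 0.91. SMAD7, TGFBI and TGFB1 rose less, by 0.97, 0.37 and 0.20. FST did not pass the test, at 0.11. INHBB had 5 reads in all young libraries and 118 in all old ones, and entered the test only through the old libraries. In all, 8 of 9 genes were called (6 higher, 2 lower) at an adjusted p under 0.05, against 66.1% of the 13173 genes tested in this comparison. This count holds INHBB. With a mean of at least 50 counts, which leaves INHBB and TGFB3 untested, 6 of 7 were called, against 7539 of 10969 genes. The median log2 change was 0.37 over the 9 genes and -0.01 over all genes tested. In bulk RNA, fewer cells that use a gene and less of its RNA in each cell cannot be told apart. All changes given here are in shares of a library, and a change in total RNA per cell would not show. The study reports a drop in labelled nascent RNA both with ICM and along passage to senescence.

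ICM cells were compared with young cells for the changes under the inhibitor, and with old cells for where the treated and the senescent cells differ. FST, INHBA and GREM1 mRNA fell in ICM vs young, by log2 changes of -1.83, -0.89 and -0.90, as did TGFB1 (-0.28). SMAD7, TGFB2 and TGFBI rose by 0.93, 0.36 and 0.25. INHBB had a log2 change of 1.45 on few reads, and TGFB3 did not pass the test. Of the 9 genes, 8 were called (4 higher, 4 lower), against 71.0% of all genes tested. In ICM vs old, 6 genes were called (1 higher, 5 lower), against 63.3% of all genes tested. INHBB is among these calls too. With a mean of at least 50 counts, 7 of 7 genes were called in ICM vs young, against 8139 of 10969 genes. In ICM vs old 4 of 7 were called, against 7192 of 10969 genes. INHBB, INHBA, FST, TGFB2 and TGFB1 were lower in ICM than in old, and TGFB3 was higher. Both comparisons with young share the young libraries, and both with ICM share the ICM libraries. The fibroblast marker sum, lower in ICM as given above, moved with these falls, and its part in them was not tested. The 8 markers did not move as one. COL1A1 was at 14728 ± 1070 CPM in young and 3168 ± 166 in ICM (SD, n = 3), COL1A2 at 7916 ± 655 and 4286 ± 45.3, and VIM at 3976 ± 142 and 1713 ± 25.6, whereas DCN was at 1434 ± 30.3 and 1623 ± 132 and LUM at 147 ± 3.74 and 149 ± 6.10. COL1A1 and COL1A2 are also in the list of TGF-beta responsive genes.

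**Figure D1:**
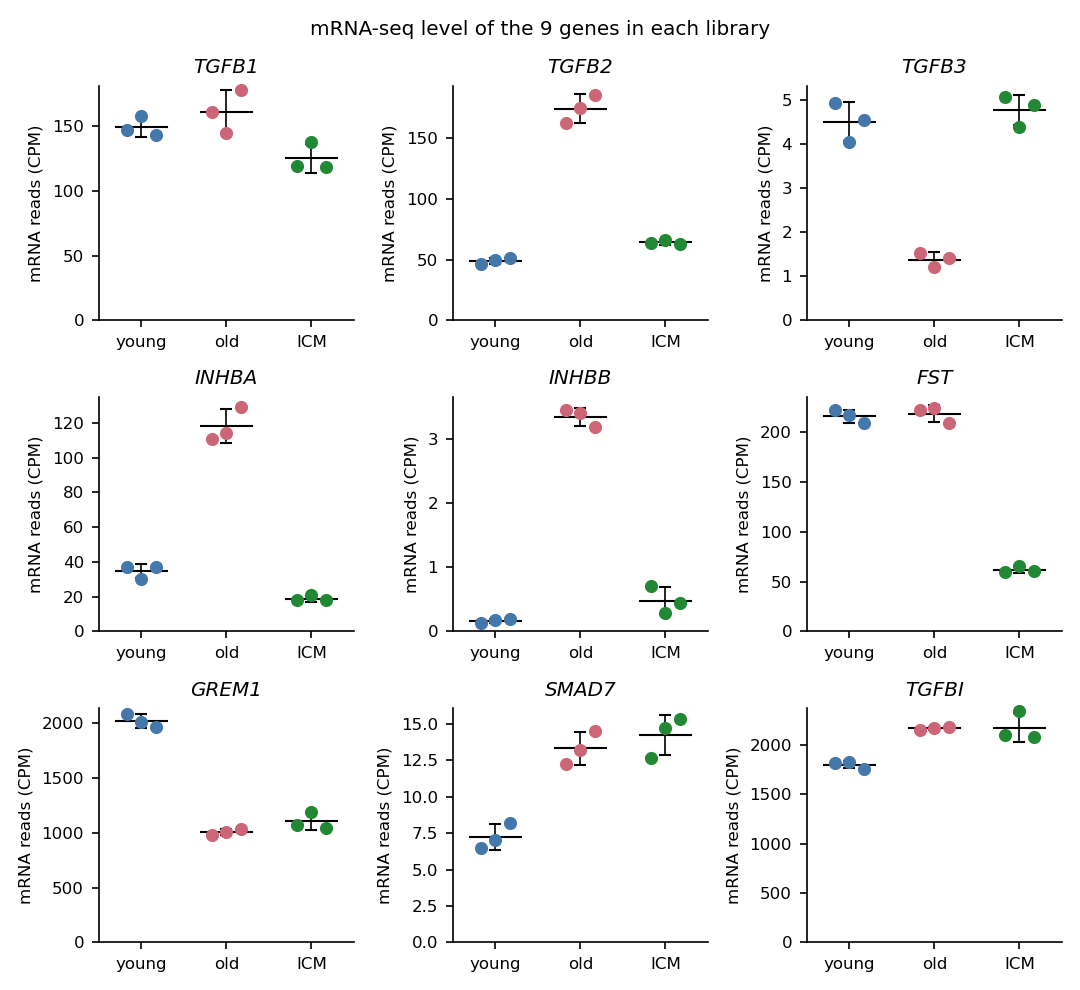
mRNA level (CPM) of each of the 9 genes by condition. Each point is 1 library, the long line is the mean of 3 libraries and the error bar its SD. INHBA, INHBB and TGFB2 are highest in the 3 old libraries, TGFB3 is lowest there, FST is lowest in the 3 ICM libraries, and GREM1 is highest in the 3 young libraries.

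TGFB1, which encodes TGF-beta 1, was at 147, 158 and 143 CPM of mRNA in young, 161, 145 and 178 CPM in old, and 119, 138 and 119 CPM in ICM. The ICM libraries lay below the others, and young and old libraries overlapped. In ICM vs young the log2 change was -0.28 (SE 0.08, adjusted p 0.00306) and in ICM vs old -0.49 (SE 0.08, adjusted p 1.21e-05). In old vs young it was 0.20 (SE 0.08, adjusted p 0.0262), and this call was lost without young replicate 1 or 3 or old replicate 1 or 3 (0.13 to 0.20, adjusted p 0.0583 to 0.142).

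TGFB2, which encodes TGF-beta 2, was at 46.4, 49.4 and 51.5 CPM in young, 162, 175 and 186 CPM in old, and 63.5, 66.2 and 62.8 CPM in ICM. The 3 conditions did not overlap. ICM cells were close to young cells and far below old cells. TGFB2 rose by a log2 change of 1.92 (SE 0.07, adjusted p 4.26e-16) in old vs young and of 0.36 (SE 0.07, adjusted p 0.000148) in ICM vs young. ICM vs old was at -1.56 (SE 0.07, adjusted p 3.29e-15).

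TGFB3, which encodes TGF-beta 3, took the opposite course to TGFB2 in old cells. Its libraries held 4.94, 4.05 and 4.55 CPM in young, 1.52, 1.20 and 1.42 CPM in old, and 5.06, 4.38 and 4.88 CPM in ICM. Old cells were lower than both other conditions without overlap, from 15 to 17 reads per library. TGFB3 had a log2 change of -1.61 (SE 0.21, adjusted p 4.88e-07) in old vs young, 1.68 (SE 0.20, adjusted p 1.53e-07) in ICM vs old and 0.07 (95% interval -0.26 to 0.40) in ICM vs young.

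INHBA, which encodes the subunit of activin A, was at 36.95, 30.1 and 36.9 CPM in young, 111, 114 and 129 CPM in old, and 17.8, 21.1 and 17.8 CPM in ICM. The 3 conditions did not overlap, and ICM lay on the other side of young from old. Old vs young gave a log2 change of 1.87 (SE 0.09, adjusted p 2.51e-14), ICM vs young -0.89 (SE 0.10, adjusted p 6.27e-08) and ICM vs old -2.76 (SE 0.09, adjusted p 3.35e-17).

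INHBB, which encodes the subunit of activin B, was close to the limit of detection outside old cells. It had 1, 2 and 2 mRNA reads in the young libraries, 34, 48 and 36 in old, and 9, 3 and 5 in ICM. In CPM, old cells stood at 3.34 ± 0.14, young at 0.17 ± 0.03 and ICM at 0.48 ± 0.21 (SD, n = 3 each). The gene passed the filter on low counts only through the old libraries, so its log2 changes of 4.31 (SE 0.36) in old vs young and -2.86 (SE 0.28) in ICM vs old rest on that group. The call in ICM vs young (1.45, SE 0.58, adjusted p 0.0379) was lost without any one of the young libraries or without ICM replicate 1 (1.04 to 1.55, adjusted p 0.0620 to 0.226).

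FST, the activin antagonist gene, was at 221, 216 and 209 CPM in young, 222, 224 and 209 CPM in old, and 59.3, 65.5 and 60.5 CPM in ICM. Young and old libraries overlapped, and all ICM libraries were far lower. FST fell in both comparisons with ICM, with log2 changes of -1.83 (SE 0.07, adjusted p 1.49e-16) in ICM vs young and -1.94 (SE 0.07, adjusted p 6.15e-17) in ICM vs old. In old vs young it was 0.11 (95% interval -0.01 to 0.24, adjusted p 0.111), and it passed the test without old replicate 3 (0.15, adjusted p 0.0467).

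GREM1, the BMP antagonist gene, was at 2085, 2011 and 1963 CPM in young, 983, 1005 and 1040 CPM in old, and 1075, 1193 and 1046 CPM in ICM. Its mRNA was lower in both old and ICM cells, with a log2 change of -0.91 (SE 0.07, adjusted p 5.52e-11) in old vs young and -0.90 (SE 0.07, adjusted p 4.17e-11) in ICM vs young. The change in ICM vs old was 0.01 (95% interval -0.12 to 0.15).

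SMAD7, the intracellular inhibitor gene, was at 6.45, 7.05 and 8.22 CPM in young, 12.3, 13.2 and 14.5 CPM in old, and 12.7, 14.7 and 15.3 CPM in ICM. Old and ICM libraries were above young without overlap, by log2 changes of 0.97 (SE 0.13, adjusted p 7.15e-07) for old and 0.93 (SE 0.13, adjusted p 8.54e-07) for ICM. The change in ICM vs old was -0.03 (95% interval -0.26 to 0.19).

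TGFBI was the most abundant of the 9 genes per coding length. It was at 1816, 1821 and 1756 CPM in young, 2153, 2172 and 2182 CPM in old, and 2097, 2343 and 2083 CPM in ICM. Old and ICM libraries were above young without overlap, but the steps were small, with log2 changes of 0.37 (SE 0.06, adjusted p 3.35e-05) for old and 0.25 (SE 0.06, adjusted p 0.00156) for ICM. ICM vs old was at -0.12 (95% interval -0.25 to 0.02) and passed the test without ICM replicate 2 (-0.18, adjusted p 0.0211).

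Reads of pairs of these genes were set against each other within each library, since such ratios do not depend on library size. There was 0.16 ± 0.02 INHBA read per FST read in young, 0.54 ± 0.07 in old and 0.31 ± 0.01 in ICM cells (SD, n = 3 each, for the mean). In mRNA the ICM ratio was above the young one although both mRNAs were lower. Footprints did not give that order: INHBA per FST in the CDS was 0, 0.14 and 0.12 in the young libraries, 0.47, 0.62 and 0.54 in old, and 0.042, 0 and 0 in ICM, the last from 1 INHBA read against 37 FST reads. In mRNA, TGFB2 reads per TGFB1 read were 0.33 ± 0.03 in young, 1.08 ± 0.11 in old and 0.51 ± 0.03 in ICM. GREM1 reads per FST read were 9.37 ± 0.07 in young, 4.63 ± 0.30 in old and 17.9 ± 0.51 in ICM. In each of these 3 mRNA ratios the libraries of the 3 conditions did not overlap. In footprints, ICM libraries overlapped young ones in the other pairs. TGFB2 per TGFB1 was 0.75, 1.10 and 0.93 in young, 2.34, 3 and 3.53 in old, and 1.39, 4.67 and 0.6 in ICM. GREM1 per FST was 1.455, 2.00 and 1.62 in young, 0.90, 0.81 and 0.75 in old, and 3.54, 5.75 and 1.33 in ICM. No test was run on the ratios.

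**Figure D2:**
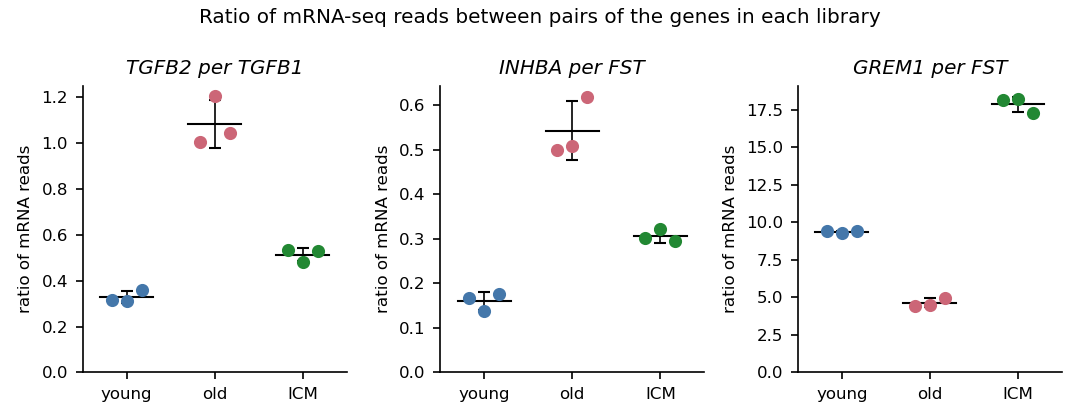
Ratio of mRNA-seq reads between pairs of the genes, per library and condition (points, with mean and SD of 3 libraries). The INHBA per FST ratio is 0.16 in young, 0.31 in ICM and 0.54 in old cells, and the GREM1 per FST ratio is lowest in old (4.63) and highest in ICM (17.9).

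Levels of different genes were compared as CPM of CDS reads per kilobase of coding length. In mRNA, TGFBI ranked first in every condition (1059 ± 11.1 in young, 1309 ± 22.3 in old and 1307 ± 66.5 in ICM, SD, n = 3) followed by GREM1 (936 ± 39.1, 451 ± 52.0 and 540 ± 45.2). FST came next in young (201 ± 12.4) and old (216 ± 7.01), ahead of TGFB1 (123.3 ± 5.61 and 138 ± 13.5). In ICM the order of these 2 genes was the other way round, with FST at 63.6 ± 5.97 and TGFB1 at 107 ± 4.998. TGFB2 followed these 4 genes in each condition, and TGFB3 and INHBB were at or under 2.77 everywhere. INHBA and SMAD7 lay next to each other in ICM, at 8.49 ± 1.06 and 8.62 ± 0.88, within their spread. In footprints the order was TGFBI, GREM1 and FST in every condition.

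Footprints in the CDS were tested for the 6 genes that passed the filter on low counts, TGFB1, TGFB2, INHBA, FST, GREM1 and TGFBI. INHBA passed it only through the old libraries, so its calls in the comparisons with old rest on that group. TGFB2 and INHBA rose in old vs young and fell in ICM vs old, FST fell in ICM against both other conditions, and GREM1 fell in old vs young, as in mRNA. In old vs young 4 of 6 were called (3 higher, 1 lower), against 36.3% of the 4643 genes tested. In ICM vs young 3 were called (1 higher, 2 lower), against 26.6%, and in ICM vs old 3 were called (0 higher, 3 lower), against 13.4%. These counts hold INHBA. A mean of at least 50 counts leaves INHBA and TGFB1 untested. At that setting 3, 2 and 2 were called, in the same order, against 978, 784 and 457 of 2143 genes. Without the 3 libraries that stand apart, 5, 3 and 3 were called, against 2609, 1865 and 957 of the 8007 genes then tested. The 4 calls in old vs young were 2 without young replicate 2 or 3 or old replicate 3, and the 3 in ICM vs young were 1 without young replicate 3 or ICM replicate 1. Over all genes, old vs young calls numbered 516 of 3909, 528 of 3925 and 813 of 3962 in these fits. ICM vs young calls numbered 619 of 3925 and 778 of 6720. TGFB1 was not called in any of these comparisons, with or without the 3 libraries that stand apart.

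**Figure D3:**
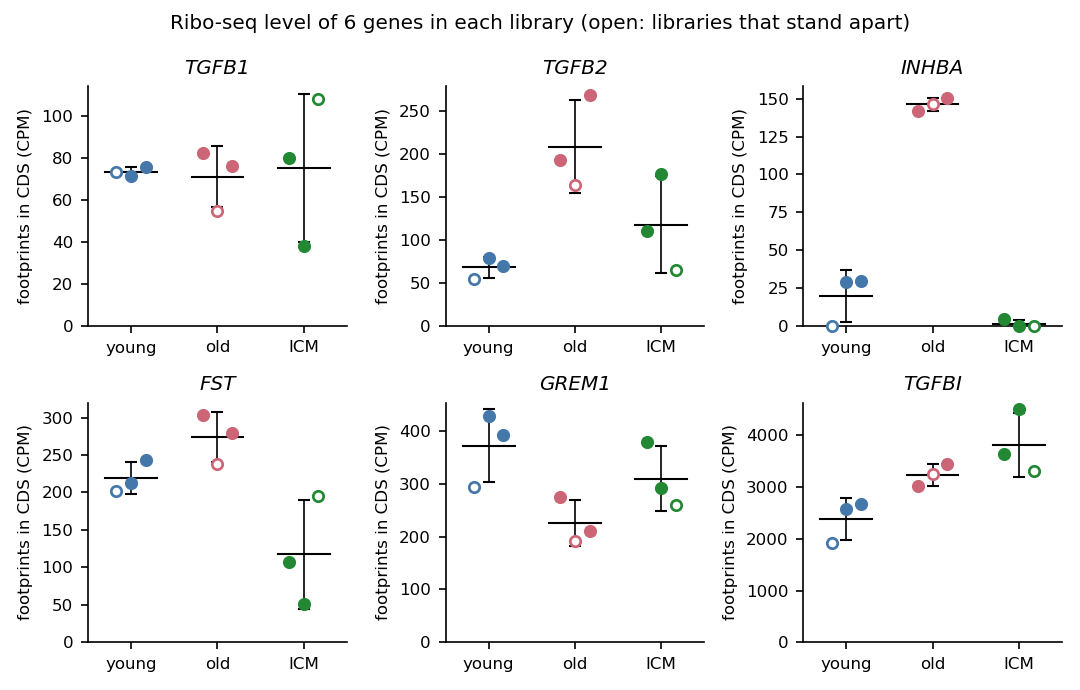
Footprint level in the CDS (CPM) of 6 genes by condition. Points are libraries, open where the library stands apart from its group, and lines and bars are the mean and SD of 3 libraries. INHBA lies at 142 to 151 CPM in old and at 0 to 4.44 CPM in ICM. FST spreads from 50.6 to 195 CPM in ICM.

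INHBA footprints numbered 0, 20 and 51 reads in the young libraries, 237, 8 and 88 in old, and 1, 0 and 0 in ICM, or 0, 29.2 and 29.7 CPM in young, 142, 146 and 151 CPM in old and 4.44, 0 and 0 CPM in ICM. The old libraries agreed closely in CPM although their depths differed widely. INHBA footprints rose by a log2 change of 2.46 (SE 0.27, adjusted p 5.04e-09) in old vs young. The gene passed the filter on low counts only through the old libraries. This call and the one in ICM vs old rest on that group. For ICM, the summed reads gave a ratio of 0.0198 to old (exact 95% counting interval 0.0005 to 0.111) and of 0.0988 to young (0.00247 to 0.569), from 1 read in 350260 CDS reads. In the fit, ICM was called lower than old (adjusted p 3.02e-07) and lower than young (adjusted p 0.0210). The call against young was lost without young replicate 3 (adjusted p 0.0612) or ICM replicate 1 (0.0978), and held without the 3 libraries that stand apart (0.0270).

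TGFB2 footprints were at 55.1, 78.8 and 70.4 CPM in young, 193, 165 and 269 CPM in old, and 111, 177 and 64.9 CPM in ICM. Old and young did not overlap, and the ICM libraries, with 25, 14 and 3 reads, overlapped both. TGFB2 footprints had a log2 change of 1.71 (SE 0.23, adjusted p 2.72e-07) in old vs young and 0.72 (95% interval 0.03 to 1.42, adjusted p 0.116) in ICM vs young. In ICM vs old it was -0.99 (SE 0.30, adjusted p 0.0221), and this call was lost without young replicate 2 or 3, old replicate 3 or ICM replicate 1 (-0.996 to -0.754, adjusted p 0.0517 to 0.191). Leaving out the 3 libraries that stand apart gave 1.75, 0.73 and -1.01 for old vs young, ICM vs young and ICM vs old, and the calls in the first and the last comparison held (adjusted p 3.17e-08 and 0.0210).

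FST footprints were at 202, 213 and 243 CPM in young, 304, 238 and 279 CPM in old, and 107, 50.6 and 195 CPM in ICM, the last from 24, 4 and 9 reads. All ICM libraries were below all others, and ICM replicate 3, which stands apart, was the nearest to young. FST footprints fell, with a log2 change of -1.10 (SE 0.30, adjusted p 0.00668) in ICM vs young and -1.55 (SE 0.30, adjusted p 0.000204) in ICM vs old. With those 3 libraries left out these were -1.42 (adjusted p 0.000700) and -1.91 (adjusted p 8.98e-06). The call in ICM vs young was lost without young replicate 3 (-1.04, adjusted p 0.0557). In old vs young the change was 0.45 (SE 0.20, adjusted p 0.0677), and it passed the test without the 3 libraries (0.49, adjusted p 0.0260), and without old replicate 2, ICM replicate 1 or ICM replicate 3 alone (0.47 to 0.55, adjusted p 0.0401 to 0.0472).

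GREM1 footprints were at 294, 427 and 392 CPM in young, 274, 192 and 211 CPM in old, and 378, 291 and 260 CPM in ICM. Young was above old in all libraries, and ICM overlapped both. Old vs young gave a log2 change of -0.60 (SE 0.20, adjusted p 0.0168), and this call was lost without young replicate 2 or 3 or old replicate 2 or 3 (-0.63 to -0.49, adjusted p 0.0829 to 0.165). Without the 3 libraries that stand apart it was -0.58 (adjusted p 0.00666). ICM vs young was at -0.25 (95% interval -0.72 to 0.22) and ICM vs old at 0.34 (-0.14 to 0.83).

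TGFBI footprints were at 1929, 2576 and 2673 CPM in young, 3021, 3254 and 3441 CPM in old, and 3639, 4507 and 3309 CPM in ICM. Old and ICM libraries were above young without overlap. The log2 change was 0.64 (SE 0.16, adjusted p 0.00358) in ICM vs young and 0.50 (SE 0.16, adjusted p 0.0137) in old vs young. Without the libraries that stand apart they were 0.51 (adjusted p 0.00181) and 0.44 (adjusted p 0.00269). The first call was lost without ICM replicate 1 or 2 (0.46 to 0.57, adjusted p 0.0610 to 0.0921). The second was lost without any one of the young libraries or without old replicate 1 or 3 (0.34 to 0.56, adjusted p 0.0595 to 0.148). ICM vs old was at 0.13 (95% interval -0.20 to 0.46).

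TGFB1 footprints were at 73.5, 71.5 and 75.6 CPM in young, 82.5, 54.8 and 76.2 CPM in old, and 80.0, 38.0 and 108 CPM in ICM. The conditions overlapped. Its log2 change was 0.21 in old vs young (95% interval -0.29 to 0.70), -0.0019 in ICM vs young (-0.77 to 0.76) and -0.21 in ICM vs old (-0.96 to 0.55), and each interval holds the change measured in mRNA.

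The other 3 genes were too sparse in footprints for a test. SMAD7 had 4 CDS reads in young and 7 in old, INHBB 0 and 5, and TGFB3 2 and 0. None had a CDS read among the 350260 of the ICM libraries, where 3 reads, the limit that a count of 0 allows, would be 8.57 CPM. That limit is above the level of each of these genes in the pooled young and old libraries, so a lower level in ICM was not detectable at this depth. All 5 INHBB reads were in old libraries, 1, 1 and 3 of them in the 3 replicates.

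**Figure D4:**
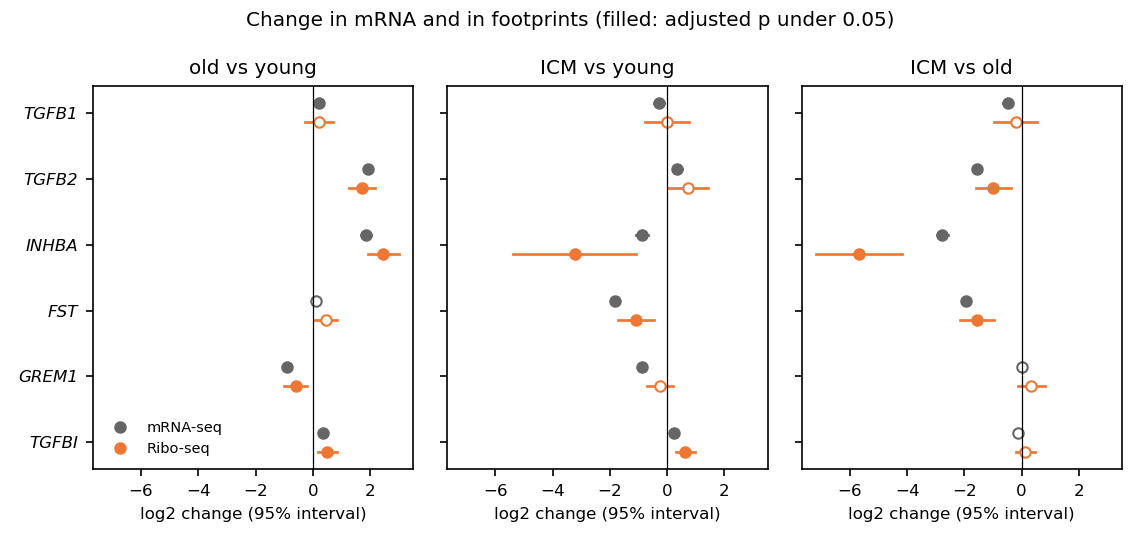
Log2 change with its 95% interval in mRNA (grey) and in CDS footprints (orange) for 6 genes in the 3 comparisons. Filled points passed an adjusted p of 0.05. INHBA footprints in ICM rest on 1 read, and their fitted change (-3.23 vs young, -5.68 vs old) depends on the fit's prior count.

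Whether footprints changed beyond their mRNA was tested as translational efficiency, the footprint level relative to the mRNA level of the same lysate. By edgeR 0 of the 6 genes were called in any comparison, against 2.45% (ICM vs young), 1.45% (old vs young) and 0.260% (ICM vs old) of the 4618 genes tested. At an unadjusted p under 0.05 there were GREM1, FST and TGFBI in ICM vs young, INHBA in old vs young and INHBA in ICM vs old, and DESeq2 also called 0. For GREM1 the log2 change in ICM vs young was 0.63 (95% interval 0.14 to 1.12, adjusted p 0.167) and without the 3 libraries that stand apart 0.52 (adjusted p 0.187). For FST it was 0.74 (0.03 to 1.44, adjusted p 0.294), and 0.37 (adjusted p 0.652) without them. In ICM the FST footprint CPM per mRNA CPM was 1.80, 0.77 and 3.22 in the 3 lysates, against 0.91 to 1.16 in young and 1.06 to 1.37 in old, and the highest value was in the replicate that stands apart. For INHBA the change in old vs young was 0.66 (0.04 to 1.28, adjusted p 0.333). The intervals in ICM vs young were wide, from -0.49 to 1.08 for TGFB1 and from -0.30 to 1.11 for TGFB2.

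The distribution of mRNA reads within a transcript was read as the 3′ UTR reads relative to the CDS reads of the same library, a measure that moves when the 3′ end in use changes or when coverage does. TGFB1, whose annotated 3′ UTR of 729 bases held 1 to 10.5 reads per library against 714 to 1271 in the CDS, did not pass the filter. Of the 8 genes tested 1 was called, in ICM vs young, against 4.47% of 9729 genes, and 0 were called in old vs young (1.90% of all) and ICM vs old (1.81% of all). The call was FST, which had 0.48, 0.47 and 0.60 3′ UTR reads per CDS read in young, 0.41, 0.56 and 0.44 in old, and 0.36, 0.34 and 0.35 in ICM. The ICM libraries were the lowest, with a log2 change of -0.56 (SE 0.14, adjusted p 0.0227) in ICM vs young and -0.44 (SE 0.14, adjusted p 0.178) in ICM vs old. The call was lost without young replicate 3 or any one of the ICM libraries (-0.59 to -0.45, adjusted p 0.0775 to 0.101). GREM1 and INHBA had 4.29 to 6.07 and 1.39 to 2.63 3′ UTR reads per CDS read, and neither was called.

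Footprints in 5′ UTRs were counted without a test. Of SMAD7 footprints in the 5′ UTR or CDS, 6 of 13 lay in the 5′ UTR in old (46.2%, exact 95% interval 19.2% to 74.9%) and 2 of 6 in young. In mRNA that share was 7.72% in old (4.64% to 11.9%). For GREM1 the footprint share was 4.28% in young (3.13% to 5.71%), 2.31% in old (1.27% to 3.85%) and 0.83% in ICM (0.02% to 4.52%), far below the mRNA share of 23.7% to 29.2%. FST stood at 4.01% in young (2.59% to 5.91%) and 1.16% in old (0.50% to 2.27%), and TGFB1 and TGFB2 between 4.31% and 7.11% in both. TGFBI had almost none, at 0.0619% in young and 0.0690% in old, from 6463 and 7241 CDS reads. These intervals cover counting error only, on reads summed over 3 libraries.

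A list of 87 other genes of the pathway, also chosen with earlier results of these data known, was read beside the 9. In mRNA 80 were tested, and 68 were called for old vs young (47 higher, 21 lower). ICM vs young gave 70 (36 higher, 34 lower) and ICM vs old 67 (25 higher, 42 lower), shares of the list to be read beside the percentages of all genes given above. Their median log2 change was 0.26, 0.04 and -0.28. The 22 TGF-beta responsive genes, all tested, divided differently by condition: 15 were higher and 2 lower in old vs young, whereas 6 were higher and 14 lower in ICM vs young, and 2 higher and 18 lower in ICM vs old. Their median log2 change was 0.39, -1.03 and -1.33. Over all genes tested in mRNA, 4271 were called higher and 4438 lower in old vs young. In ICM vs young these were 4597 and 4760, and in ICM vs old 4049 and 4289. In footprints, 15 of the 22 were tested, with 10 higher and 0 lower in old vs young, 2 higher and 6 lower in ICM vs young, and 0 higher and 9 lower in ICM vs old. Of all genes tested in footprints, 36.3%, 26.6% and 13.4% were called. Their split was 896 higher and 789 lower, 635 and 601, and 269 and 354. Without the 3 libraries that stand apart, 17 responsive genes were tested, and 11 were higher and 1 lower, 3 and 8, and 0 and 14. Of all 8007 genes then tested, 2609, 1865 and 957 were called.

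**Figure D5:**
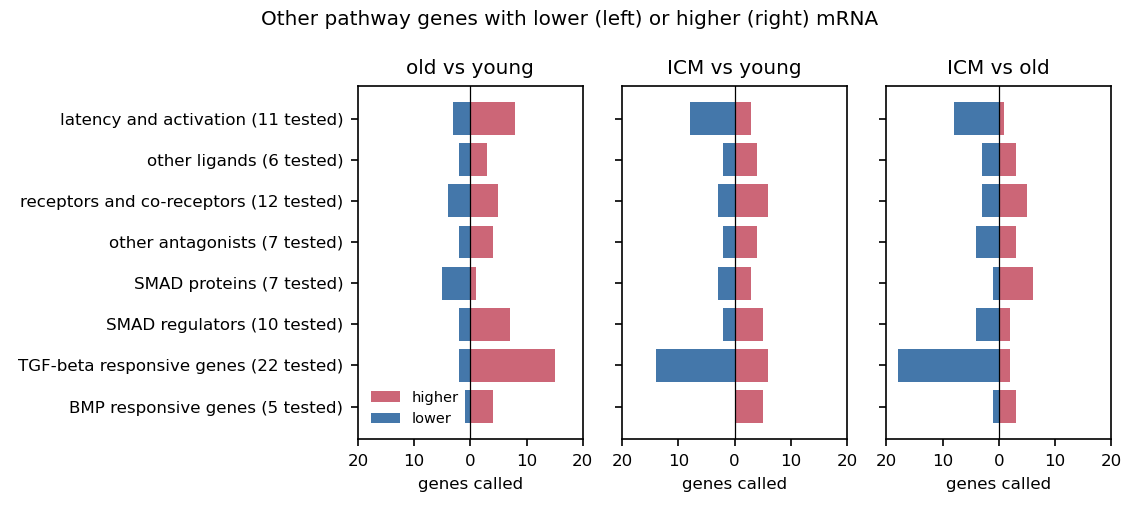
Number of other pathway genes with higher (red, right) or lower (blue, left) mRNA at an adjusted p under 0.05, by list and comparison. Of 22 TGF-beta responsive genes, 15 are higher and 2 lower in old vs young, and 2 are higher and 18 lower in ICM vs old.

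The TGF-beta responsive genes with the largest changes follow. TAGLN, which encodes the actin-binding protein transgelin, was at 2189 ± 210.2 CPM of mRNA in young, 3551 ± 43.0 in old and 141 ± 7.69 in ICM (SD, n = 3), a log2 change of -3.98 (SE 0.08) in ICM vs young and -4.77 (SE 0.08) in ICM vs old. ACTA2, smooth muscle actin and a myofibroblast marker, was at 843 ± 49.4, 1072 ± 65.6 and 90.0 ± 2.15 CPM, though reads of near-identical actin genes may be divided among them. NOX4, an oxidase gene, stood at 3.75 ± 0.56, 9.02 ± 0.68 and 0.78 ± 0.12 CPM and had a log2 change of -3.64 in ICM vs old. ELN, the elastin gene, fell in both, to a log2 change of -5.40 in ICM cells and -3.75 in old cells, each against young. IGFBP3, which encodes an IGF-binding protein, was at 452 ± 2.25 CPM in young, 3046 ± 35.2 in old and 470 ± 35.2 in ICM, and its mRNA rose by a log2 change of 2.85 in old vs young. Not all went one way: CCN2, a matricellular growth factor gene, rose in both, by 1.48 (old vs young) and 1.13 (ICM vs young).

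Translational efficiency was called for 3 of the 46 other pathway genes tested in ICM vs young, all higher, against the 2.45% of all genes given above. In old vs young 0 were called, and in ICM vs old 2, ACTA2 (1.22, adjusted p 0.0177) and LTBP3 (-2.50, adjusted p 0.0378). Of all genes, 1.45% and 0.260% were called in these comparisons. LTBP3 had 6 footprint reads in ICM, with a median of 0 CPM and a highest value of 26.7 CPM over the 3 libraries. TAGLN and ACTA2 footprints fell less than their mRNA in ICM vs young, with log2 changes in translational efficiency of 1.32 (SE 0.27, adjusted p 0.00336) and 1.37 (SE 0.25, adjusted p 0.000626). Once the libraries that stand apart were left out these were 0.68 (adjusted p 0.0615) and 0.99 (adjusted p 0.0119). Of 63 pathway genes 1 was then called, against 164 of the 7966 genes tested. In ICM vs old 0 were then called, with ACTA2 at 0.86 (adjusted p 0.0973), against 19 of all 7966 genes. In old vs young 1 was called, TAGLN at 0.58 (adjusted p 0.0105), against 124 of them. ICM replicate 3, which held footprints of genes with mRNA in young but not ICM cells, is among the libraries left out. Footprints of ACTA2, which summed to 99.7 in ICM, may also be divided among near-identical actin genes. What that does to its translational efficiency was not tested.

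Of the genes that hold and release latent TGF-beta, 11 of 12 were tested in mRNA. In old vs young 8 were higher and 3 lower, in ICM vs young 3 higher and 8 lower, and in ICM vs old 1 higher and 8 lower. Of all genes tested, 66.1%, 71.0% and 63.3% were called in these comparisons, with the split into higher and lower given above. LTBP1 and LTBP2, latent TGF-beta binding proteins, had log2 changes of -1.22 and -2.01 in ICM vs young and 0.40 and 0.42 in old vs young. THBS1, thrombospondin 1, which can activate latent TGF-beta, rose by 1.46 in old vs young and fell by 2.29 in ICM vs old. ITGB5 and ITGB8, partners of the alpha-v integrin, went opposite ways in old vs young, with 1.87 (SE 0.06) and -3.32 (SE 0.12).

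The counts that follow are for receptors, other ligands, antagonists, BMP responsive genes, SMADs and their regulators. They are to be read beside the 66.1% of all genes called in old vs young and the 71.0% in ICM vs young. Of 12 receptor and co-receptor genes, all tested, 5 were higher and 4 lower in old vs young and 6 higher and 3 lower in ICM vs young, so 9 were called in each. TGFBR2, the type II TGF-beta receptor gene, was at 193 ± 1.19 CPM of mRNA in young, 893 ± 8.85 in old and 371 ± 9.72 in ICM, with a log2 change of 2.30 (SE 0.06) in old vs young and 0.92 (SE 0.06) in ICM vs young. Its footprints rose by 2.23 (SE 0.21) in old vs young, and by 2.26 without the 3 libraries that stand apart. TGFBR1, its signalling partner, went the other way in old vs young, with -0.57, and had 0.67 in ICM vs young. BMPR1B, a BMP receptor gene, was at 2.31 ± 0.10 CPM in young, 1.85 ± 0.08 in old and 6.49 ± 1.47 in ICM.

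Among 9 other ligand genes, 6 were tested. GDF15, a stress-induced member of the family, rose by 1.81 (SE 0.09) in ICM vs young, from 64.9 ± 5.79 to 232 ± 34.5 CPM of mRNA, and its footprints rose by 2.28 with and without the 3 libraries. BMP2 rose by 2.58 (SE 0.11) in old vs young, from 8.71 ± 1.03 to 48.5 ± 2.04 CPM. INHBE, another inhibin beta subunit gene, fell in old and ICM cells, from 14.3 ± 1.52 CPM in young to 2.10 ± 0.45 in old and 0.66 ± 0.27 in ICM. Of 9 other antagonist genes 7 were tested, with 4 higher and 2 lower in old vs young and also in ICM vs young. FSTL3, a relative of follistatin, rose by 1.23 in old vs young.

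The 5 BMP responsive genes were all higher in ICM vs young, and 4 were higher and 1 lower in old vs young. ID1, ID2 and ID3, which encode inhibitors of bHLH factors, had log2 changes of 1.91, 1.70 and 2.21 in ICM vs young, whereas old vs young gave 1.78, -0.91 and 1.21. ID2 was at 30.5 ± 2.23 CPM in young, 15.2 ± 1.64 in old and 101 ± 10.3 in ICM. ATOH8, a bHLH factor gene, was at 9.19 ± 1.20 CPM in young, 13.0 ± 2.55 in old and 44.4 ± 2.95 in ICM. Of 7 other SMAD genes, 1 was higher and 5 lower in old vs young, and 3 higher and 3 lower in ICM vs young. SMAD1 fell by 1.37 (SE 0.13) in old vs young, and SMAD9 was at 6.72 ± 0.80 CPM in young, 4.82 ± 0.29 in old and 22.8 ± 0.85 in ICM. Of 11 genes that regulate SMADs, 10 were tested, with 7 higher and 2 lower in old vs young and 5 higher and 2 lower in ICM vs young. PMEPA1 and SKIL, both feedback inhibitors, had changes of 0.96 and 0.41 in old vs young and -1.10 and -1.22 in ICM vs old.

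The genes whose mRNA pattern was most like each of the 9 were found by Pearson's r of log2(CPM + 1) over the 9 mRNA-seq libraries, among 10814 sufficiently expressed genes. INHBA was followed most closely by JPH2, a junction protein gene, and GADD45B, a stress response gene (r = 0.99 for both), and TGFB2 by NEO1 and UPP1 (r = 1.00 for both). FST was closest to SLC29A1 and PODN (r = 1.00 for both), and PODN, which encodes the matrix protein podocan, went from 45.8 CPM in young and 47.6 in old to 4.88 in ICM. For GREM1 these were SRRM1 and MFAP4 (r = 1.00 and 0.99), for TGFB3 GATB and KCNJ8 (r = 0.99 for both), for INHBB PCNX4 and TMOD2 (r = 0.99 for both), for SMAD7 MSI2 and LIN7A (r = 0.99 and 0.98), for TGFBI RAB7A and PLBD2 (r = 0.98 for both) and for TGFB1 TRIM8 and RNF126 (r = 0.97 and 0.96). With 3 conditions such r values are common: 215 genes had an r over 0.95 with INHBA, 297 with FST and 5 with TGFB1. They describe these libraries only.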

How the data were processed

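The members and lists were chosen with earlier results of these data known. Groups and replicate numbers come from the sample titles, and the study's methods state that 1 lysate served both assays. The authors deposited estimated counts per gene symbol, not scaled to depth, in columns for 5′ UTR, CDS, 3′ UTR and non-coding classes, and 14.1% to 23.2% of a library's non-zero values were not whole. The submitters' notes name GRCh37, STAR 2.6.0c, featureCounts, DESeq2 and deepTools, and their role here, the placing of reads with several matches and the use of strand were not given in the sources used here. The labels give total RNA for mRNA-seq, whereas the methods give poly(A)-enriched RNA.

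CDS columns (footprints) and summed 5′ UTR, CDS and 3′ UTR columns (mRNA) were rounded and tested with edgeR 4.0.16 in R 4.3.3 (quasi-likelihood, TMM, filterByExpr, all 9 libraries of an assay in one fit). P-values are two-sided, Benjamini-Hochberg adjusted over all genes tested, and called under 0.05. Translational efficiency was the interaction of assay and condition over 18 libraries with the lysate as a block (a pairing from the methods, with deviations of the same lysate in both assays correlated at r of -0.0795 to 0.136), and the 3′ UTR measure the same with the library as a block. Standard errors derive from the F statistic. Steps were tested on simulated counts. Whether replicates are separate cultures is stated only in the methods. Reads are not counted by molecule, so intervals and floors (3 counts) cover counting error only.

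The named genes were the 9 members, for each mRNA comparison the 4 pathway genes that rose most and the 4 that fell most (called, at least 5 CPM in a group, no overlap), the 2 genes most like each member, and the markers. CCN2, LTBP1, LTBP2, THBS1, TGFBR1, FSTL3, PMEPA1, SKIL, LTBP3, KRT8 and MKI67 were named besides, and those of the pathway after their values were seen. Not every gene that the rule gives is reported here. All 87 pathway symbols matched the tables, CTGF through RefSeq as CCN2. Alternatives were RLE scaling, DESeq2 1.42.0, other filters and thresholds, CDS reads only, fits of 2 groups, replicate blocks, and leaving out libraries.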

Additional observations from a re-analysis of the deposited data

How the results depend on the processing

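Counts of called members stayed within 1.5 times of the reported ones under RLE scaling, no filter, a mean of at least 50 counts, and fits of only the compared groups. With an absolute log2 change over 0.6, 5 members were called in mRNA in ICM vs young and 2 in Ribo-seq in old vs young. Over all genes, 5055 of 13173 and 1543 of 4643 were called at that setting. DESeq2 called 0 members in the 3′ UTR measure in ICM vs young (FST adjusted p 0.0620). Leaving out 1 library gave 7 to 8, 7 to 8 and 6 to 7 members in mRNA for ICM vs young, old vs young and ICM vs old, 1 to 3, 2 to 5 and 2 to 3 in Ribo-seq, and 0 to 1 in the 3′ UTR measure in ICM vs young. Over all genes these fits called 8814 to 9642, 8058 to 8708 and 7664 to 8459 of 13269 to 13338 in mRNA. In Ribo-seq they called 619 to 1758, 516 to 2531 and 332 to 924 of 3909 to 7323. In the 3′ UTR measure in ICM vs young they called 302 to 454 of 9858 to 9946. With no filter, TGFBI (both comparisons with young) and GREM1 (old vs young) were not called in Ribo-seq (adjusted p 0.0793 to 0.141).

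Pairing by replicate number was not seen, as deviations of same-numbered libraries correlated with r between -0.0555 and 0.103. Both assays of the same lysate gave r of similar size, -0.0795 to 0.136, so this check cannot exclude pairing. With the replicate block, mRNA calls numbered 8, 8 and 6 and Ribo-seq calls 2, 3 and 2, where INHBA in ICM vs young (adjusted p 0.0606), GREM1 in old vs young (0.0640) and TGFB2 in ICM vs old (0.0907) did not pass. DESeq2 left out the same 3 Ribo-seq calls (0.0855, 0.121 and 0.196) and INHBB in ICM vs young mRNA (0.0793). Over all genes, Ribo-seq calls in these comparisons (ICM vs young, old vs young, ICM vs old) numbered 1236, 1685 and 623, with DESeq2 688, 530 and 341, and with the block 741, 653 and 418. Translational efficiency gave 0 member calls under each alternative run, an adjusted p under 0.15 and the fit with no replicate block for the lysate included, which called 308, 462 and 53 genes in all against 113, 67 and 12.

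Signs turned only for changes that were not called. In mRNA these were SMAD7 in ICM vs old (0.073 with CDS reads only, -0.081 to 0.052 with 1 library left out), GREM1 in ICM vs old (-0.058 to 0.059) and TGFB3 in ICM vs young (-0.0085 to 0.13). In Ribo-seq they were TGFBI in ICM vs old (-0.036 with no filter, -0.025 to 0.20 with 1 library left out), TGFB1 in ICM vs young (0.0043 with only the compared groups, -0.35 to 0.15) and GREM1 in ICM vs old (-0.058 to 0.57), and in translational efficiency GREM1 in ICM vs old (-0.16 to 0.53). The cause was not tested.

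Other pathway genes called in Ribo-seq in old vs young numbered 24, 12 with DESeq2, 14 with the replicate block and 11 to 14 without young replicate 2 or 3 or old replicate 1 or 3. Over all genes, calls numbered 516, 528, 657 and 813 without these libraries in turn, against 1685 with all libraries. The ICM Ribo-seq libraries, with 46239 to 225041 CDS reads, limit every footprint comparison with ICM. Young replicate 1 and old replicate 2, with 54421 and 54708 CDS reads, limit those with young and old as well.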

Other observations

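The 5′ UTR of FST held 121 mRNA reads in ICM replicate 3, against 40 and 38 in ICM replicates 1 and 2, although CDS reads were fewer there (417 against 532 and 490). That is 0.29 5′ UTR read per CDS read, against 0.07 to 0.11 in the other 8 libraries. It was noticed after the values were seen, and no test was run.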
